A study of Mus musculus with 12 samples.

Results

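The comparison described here was between small intestinal organoids grown for 4 days with regulatory T (Treg) cells and control organoids. Its members were 3939 cells of 11987 kept in the series, 2108 from Treg co-culture (Treg) and 1831 from control organoids (Ctrl). A cell was a member when its hashtag gave a single call for one of these groups in libraries B1 to B5, and when it held 10000 to 90000 unique molecular identifiers (UMIs, each standing for 1 captured mRNA molecule), 3000 to 10000 genes and at most 8.5% mitochondrial UMIs. The organoids came from wild-type BALB/c mice. Treg cells were allogeneic, sorted as CD25high FoxP3-GFP+ cells, and 100000 were placed in a well with 30 U/ml IL-2 and 2 µl CD3/CD28 beads, in a tilted plate that kept them from touching the organoids. Whether the Ctrl wells received IL-2 or beads is not given in the sources used here. T cells were then removed, living EpCAM+ epithelial cells were sorted, and cells of 6 groups were hashed and pooled into each library. The other 4 groups were Treg co-cultures with 10 µg/ml antibody against IFNγ, against the IL-10 receptor or against both, and organoids given 0.25 ng/ml rIFNγ with 10 ng/ml rIL-10. Replicate 1 was libraries B1 and B2, replicate 2 was B3 and B4, and replicate 3 was B5, which gave 612, 875 and 344 Ctrl cells and 700, 987 and 421 Treg cells.

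The small intestinal epithelium is renewed by Lgr5+ intestinal stem cells (ISCs) in the crypt, whose progeny divide as transit amplifying (TA) cells and mature into enterocytes or into secretory cells such as goblet and Paneth cells. IFNγ binds the IFNGR1 and IFNGR2 receptor chains, and the kinases JAK1 and JAK2 then start signalling that switches on transcription factors such as IRF1 and, through CIITA and NLRC5, the genes of antigen presentation. IL-10 acts through IL10RA and IL10RB and mainly through STAT3. Epithelial cells can show peptides on MHC class I, whose peptides are cut by the proteasome and by its interferon-inducible form, the immunoproteasome, and under IFNγ also on MHC class II.

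The group of each cell was read from the barcode oligo of its hashtag antibody, and these sequences are shown because membership rests on them.
Ctrl hashtag: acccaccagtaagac
Treg hashtag: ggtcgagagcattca

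The sums of all member cells held 15576378 to 43932845 UMIs per group and replicate. Between 38.8% and 69.9% of the hashtag singlets passed the limits, with values of 40.0%, 69.9% and 41.7% in Ctrl and 38.8%, 64.9% and 39.6% in Treg, so that replicate 2 stood apart in both groups. Median UMIs per cell ran from 42328 to 48347 and median mitochondrial shares from 3.91% to 4.13%. Any pair of libraries shared 9 to 24 cell barcodes. The 7 epithelial markers summed to 6031 to 6284 CPM (normalised UMIs of a gene per 1000000 UMIs) in all 6 sums. The 17 T cell markers summed to 2.95 to 3.25 CPM in Ctrl and 2.45 to 3.48 in Treg, and Cd3e, Trbc1, Trbc2, Ptprc and Ifng had 0 UMIs in both groups. Ctla4 had 66, 72 and 33 UMIs in Ctrl replicates 1, 2 and 3 and 71, 68 and 31 in Treg. Lck had 14, 18 and 9 against 22, 51 and 8, Foxp3 1, 2 and 0 against 2, 2 and 2, and Cd4 2, 10 and 0 against 0, 2 and 0.

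Few genes passed the test in sums of all cells, and those that did were higher after co-culture. In sums of all cells, 23 of 14994 genes tested (0.153%) were higher in Treg than in Ctrl and 0 were lower (edgeR quasi-likelihood test, adjusted p below 0.05), while 1031 genes had an unadjusted p below 0.05. Each of the 23 was higher in 3 of 3 replicates and in 5 of 5 libraries, where 16.6% of all genes were higher in 3 of 3 replicates. The Ctrl and Treg replicates did not overlap for any of the 23, and did not overlap, with Treg higher, for 2.88% of all genes. Their log2 fold changes ran from 0.48 (Erap1) to 4.74 (Cd74) with a median of 1.05, while the median of all genes was -0.003. The size of the change differed between replicates: the median log2 difference of the 23 genes was 0.82 in replicate 1, 1.27 in replicate 2 and 1.03 in replicate 3, and 20 of the 23 genes had their largest difference in replicate 2. These counts depended on the pairing of the groups within libraries and on the replicates: 5 genes passed without the replicate block, and of the 23 genes 21 still passed without replicate 1, 6 without replicate 2 and 0 without replicate 3. Lower genes appeared under other settings: 31 of 160 called genes were lower when only Ctrl and Treg sums were fitted, 4 of 54 with DESeq2 and 8 of 53 without replicate 1.

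**Figure D1:**
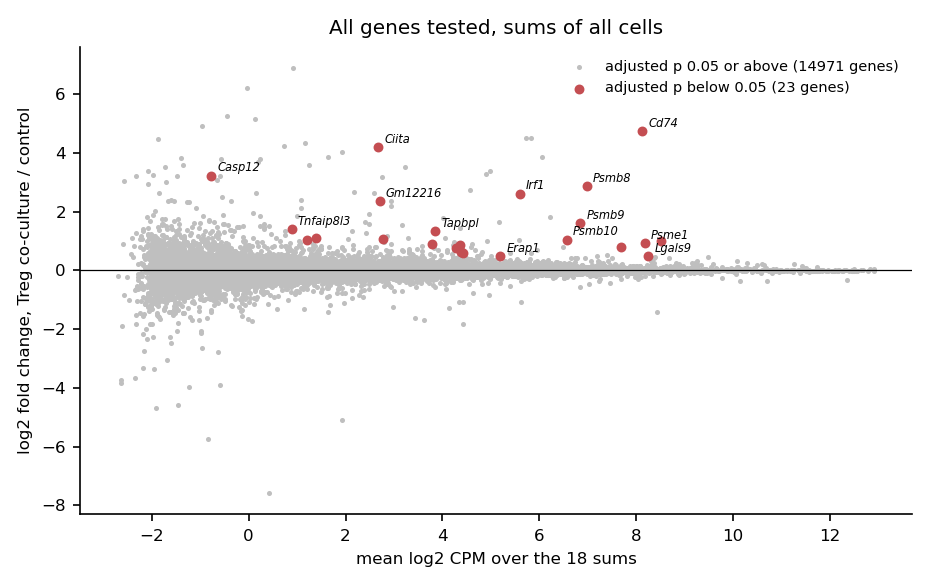
Each point is 1 of the 14994 genes tested in sums of all cells, with its mean log2 CPM over the 18 sums of the series on the horizontal axis and its log2 fold change between Treg co-culture and control on the vertical axis. The 23 genes that passed an adjusted p of 0.05 (red) all lie above 0, from 0.48 to 4.74.

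Among the regulators of the interferon response, 2 of 15 tested STAT and IRF factors passed the test. Irf1, a transcription factor induced by interferon, stood at 9.11, 6.89 and 8.06 CPM in Ctrl replicates 1, 2 and 3 and at 38.2, 65.6 and 42.4 in Treg. The groups did not overlap, and the change was 6.13-fold (log2 fold change 2.62, SE 0.28, adjusted p = 0.00201). Irf9, the DNA-binding subunit of the ISGF3 complex, rose from 4.43, 3.12 and 4.2 to 7.90, 7.82 and 8.64 CPM (log2 fold change 1.07, SE 0.16). Nmi, a protein that binds STAT factors, rose by 0.61 on the log2 scale, from 16.7, 14.5 and 17.3 to 24.2, 24.0 and 25.1. Irf8 had a log2 fold change of 0.78 (adjusted p = 0.543) and Stat3, the main factor below the IL-10 receptor, one of 0.15 (adjusted p = 0.911), with replicate values of 18.8, 15.9 and 15.2 in Ctrl and 21.8, 19.6 and 13.7 in Treg that overlapped.

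The receptor chains themselves were among the genes without a call. None of the 19 tested cytokine receptors and kinases passed, where 0.153% of all genes did, and their median log2 fold change was 0.08. In 3 of 3 replicates 10 of the 19 were higher and 3 lower, where 16.6% of all genes were higher and 17.3% lower. Ifngr1 stood at 90.4 to 106 CPM in Ctrl and 92.3 to 112 in Treg, Ifngr2 at 67.1 to 77.7 and 63.0 to 74.4, and Il10rb at 21.7 to 30.0 and 22.8 to 30.6. Il10ra, the ligand-binding chain for IL-10, had 0 UMIs in 84127565 of Ctrl and 0 in 96724160 of Treg, which allows at most 0.0357 and 0.0310 CPM (3 counts over the group, counting error only). Among 13 brakes of cytokine signalling 0 passed; Socs1, a feedback inhibitor of JAK kinases, stood at 0.713, 1.18 and 0.689 in Ctrl and 0.779, 1.89 and 1.66 in Treg (adjusted p = 0.886), and Socs3 had a log2 fold change of -0.02.

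The immunoproteasome list had the largest share of calls among the lists counted here: 5 of its 6 genes rose, and the median log2 fold change of the 6 was 0.99. Psmb8, Psmb9 and Psmb10 code for the catalytic subunits that replace PSMB5, PSMB6 and PSMB7 of the constitutive proteasome. Psmb8 rose from 9.67, 7.00 and 18.8 CPM in Ctrl to 37.6, 123.5 and 86.6 in Treg (7.26-fold, log2 fold change 2.86, SE 0.42, adjusted p = 0.0113). Psmb9 rose from 22.9, 26.4 and 36.3 to 46.3, 130 and 93.1 (3.05-fold), and Psmb10 from 39.7, 48.1 and 59.3 to 66.4, 134 and 108 (2.07-fold). For each of these genes the lowest Treg value exceeded the highest Ctrl value, and replicate 2 held the highest Treg value. Psme1 and Psme2, the subunits of the PA28 activator that opens the proteasome, rose by 0.94 and 0.81 on the log2 scale; Psme1 was at 157, 160 and 177 in Ctrl and 264, 385 and 302 in Treg. The sixth gene of the list, Ubd, does not code for a proteasome subunit and had 2 to 6 UMIs per sum in Ctrl and 3 to 6 in Treg. Of 34 members of the constitutive proteasome 0 passed, where 0.153% of all genes did. Their median log2 fold change was 0.03, with values of 0.02 for Psmb5, 0.01 for Psmb6 and 0.03 for Psmb7. In 3 of 3 replicates 13 of the 34 were higher and 1 lower, where 16.6% of all genes were higher and 17.3% lower.

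Of 23 tested genes of the MHC class I pathway, 3 rose and 0 fell; 20 of the 23 were higher in 3 of 3 replicates, and their median log2 fold change was 0.44. The genes that passed act in peptide trimming and loading. Erap1, which trims peptides in the endoplasmic reticulum, rose by 0.48 on the log2 scale (SE 0.07), Tapbp, the loading factor tapasin, by 0.77 (SE 0.14), and the related Tapbpl by 1.32 (SE 0.23). The peptide transporter gene Tap1 stood at 2.88, 3.09 and 2.96 CPM in Ctrl and 5.84, 16.3 and 9.53 in Treg, which did not pass (adjusted p = 0.19). The heavy chain genes H2-K1 and H2-D1 and the light chain gene B2m had log2 fold changes of 0.43, 0.44 and 0.42 with adjusted p of 0.48 to 0.593; the heavy chain genes are close in sequence, so the split of reads between them is uncertain. Nlrc5, the activator of class I genes, had 4, 4 and 3 UMIs in Ctrl and 39, 149 and 20 in Treg (adjusted p = 0.0594).

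Genes of the MHC class II pathway showed large changes with a wide spread between replicates. Of 14 tested members 3 passed, Cd74, Ciita and Ctss, and the median log2 fold change of the 14 was 2.58, with replicate medians of 0.45, 3.13 and 1.34. Cd74, the invariant chain that guides class II molecules, stood at 1.64, 5.16 and 3.65 CPM in Ctrl and at 12, 285 and 70.7 in Treg (26.7-fold, log2 fold change 4.74, SE 0.74, adjusted p = 0.0193). The groups did not overlap, but Treg replicate 2 was far above the other two, and the call was lost without replicate 2. Ciita, the master regulator of class II genes, had 6, 7 and 4 UMIs in Ctrl and 45, 336 and 43 in Treg (log2 fold change 4.2, SE 0.73). Ctss, the protease that removes the invariant chain, rose by 0.61 on the log2 scale (SE 0.11), from 15.7, 13.7 and 16.2 to 20.6, 25.0 and 24.0. The class II chains had fold changes of the same order but did not pass in all cells: H2-Aa was at 0.527, 1.05 and 0.413 in Ctrl and 2.61, 46.0 and 7.48 in Treg (adjusted p = 0.101), and H2-Ab1 and H2-Eb1 had log2 fold changes of 3.86 (adjusted p = 0.165) and 4.5 (adjusted p = 0.134). H2-DMa, a chain of the peptide exchange factor, went from 7.47, 8.12 and 9.92 to 13.6, 44.4 and 24.3 (adjusted p = 0.107). The 11 markers of other immune cells, which also use class II genes, summed to 1.73 to 3.22 CPM in Ctrl and 2.76 to 3.73 in Treg, with Itgax and Tyrobp among those at 0 UMIs in Treg.

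**Figure D2:**
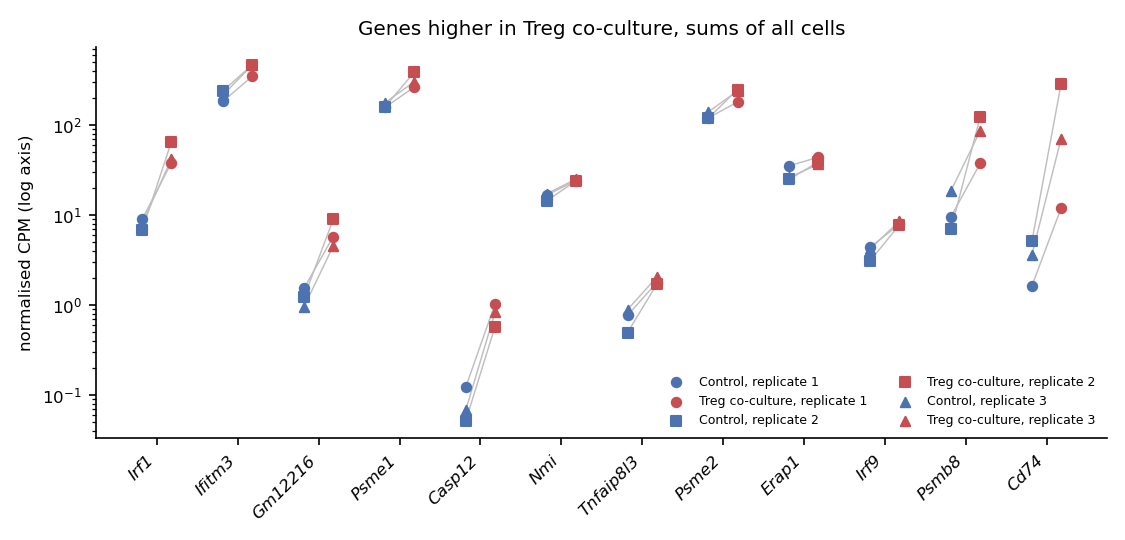
CPM (log axis) of the 12 genes with the smallest p among those higher in Treg, in sums of all cells; blue symbols are control and red symbols Treg co-culture, circles, squares and triangles are replicates 1, 2 and 3, and a grey line joins the sums of 1 replicate. In each gene every red symbol lies above every blue one, and Cd74 spreads most, from 12 to 285 in Treg.

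Of the 23 called genes 15 belonged to one of the gene lists; most of those described next did not. Ifitm3, a membrane protein that blocks virus entry, rose from 185, 242 and 217 CPM to 350, 468 and 467 (1.99-fold, adjusted p = 0.00201). Casp12, a caspase of the inflammatory group, was near the limit of detection in Ctrl, with 4, 2 and 1 UMIs, and had 37, 25 and 15 in Treg. Gm12216, a protein-coding gene without a given name, rose from 1.55, 1.23 and 0.964 to 5.79, 8.97 and 4.54. Its annotated 3′ end lies 5043 bases from that of Irf1 on chromosome 11 (GENCODE vM21, GRCm38). Tnfaip8l3, a carrier of phosphoinositides, rose by 1.41 on the log2 scale; its Ctrl values were 0.775, 0.498 and 0.895 and its Treg values 1.78, 1.71 and 2.05. Tnfsf10, which codes for the death ligand TRAIL, rose by 0.87, and Lgals9, which codes for galectin-9, by 0.49. The remaining calls were Unc93b1, a chaperone of endosomal Toll-like receptors, Shfl, an antiviral RNA-binding protein, and Adgrd1, an adhesion receptor, with log2 fold changes of 0.90, 1.10 and 1.04.

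Other interferon-inducible lists held no call in all cells. Of 15 tested interferon-inducible GTPases 0 passed, although their median log2 fold change was 3.26; 14 of the 15 were below 1 CPM in Ctrl and 10 were below it in both groups. Igtp had 27, 14 and 7 UMIs in Ctrl and 66, 563 and 39 in Treg (adjusted p = 0.567). Gbp2 had 0 UMIs in the 3 Ctrl sums and 1, 10 and 1 in Treg. Of 38 tested genes of the type I interferon-inducible list 0 passed, and 21 were higher and 6 lower in 3 of 3 replicates. Their median log2 fold change was 0.36. The called genes Ifitm3, Shfl and Nmi were not on this list, so the 0 covers its members only. Of 31 cell death genes, Casp12 was the 1 that passed; Gsdmd, Mlkl and Fas had log2 fold changes of 0.70, 0.74 and 0.90 with adjusted p of 0.213, 0.279 and 0.599.

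Lists of growth, cell cycle and stem cell genes held no call. None of 48 genes of mTORC1-induced metabolism passed; their median log2 fold change was 0.12, and 30 were higher and 0 lower in 3 of 3 replicates, where 16.6% of all genes were higher and 17.3% lower. The mTORC1 complex and its regulators (30 genes), the Myc network (13) and Myc-induced ribosome biogenesis (62) had 0 calls each and medians of 0.03, -0.07 and -0.003. Myc was at 70.4, 77.6 and 70.4 CPM in Ctrl and 64.7, 75.2 and 69.3 in Treg (log2 fold change -0.07, SE 0.10, adjusted p = 0.947), and Mki67, a marker of dividing cells, at 227, 162 and 151 against 226, 146 and 144. Of 50 G1-S and 52 G2-M genes 0 passed, with 15 and 18 lower and 4 and 1 higher in 3 of 3 replicates. In ISC-like cells, a class described below, 12 of the 50 G1-S genes were higher and 1 lower in 3 of 3 replicates. Over all 12567 genes tested there, 1796 were higher and 2094 lower. The median log2 fold change of the G1-S genes there was 0.05, with replicate medians of 0.07, 0.12 and -0.04. A Ctrl cluster behind this class was led by the cyclin genes Ccne1 and Ccne2, and its part in these counts was not tested. The G2-M genes there had 2 higher and 17 lower. The 15 tested ISC genes had a median of -0.13, with 7 lower in 3 of 3 replicates, and the replicate medians were -0.03, -0.40 and -0.06. Lgr5 stood at 54.6, 69.0 and 39.3 in Ctrl and 59.0, 48.0 and 47.0 in Treg (adjusted p = 0.996), and Olfm4 had a log2 fold change of -0.26 (SE 0.21). The 16 enterocyte genes had a median of 0.22, with 8 higher and 1 lower in 3 of 3 replicates and 0 calls.

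**Figure D3:**
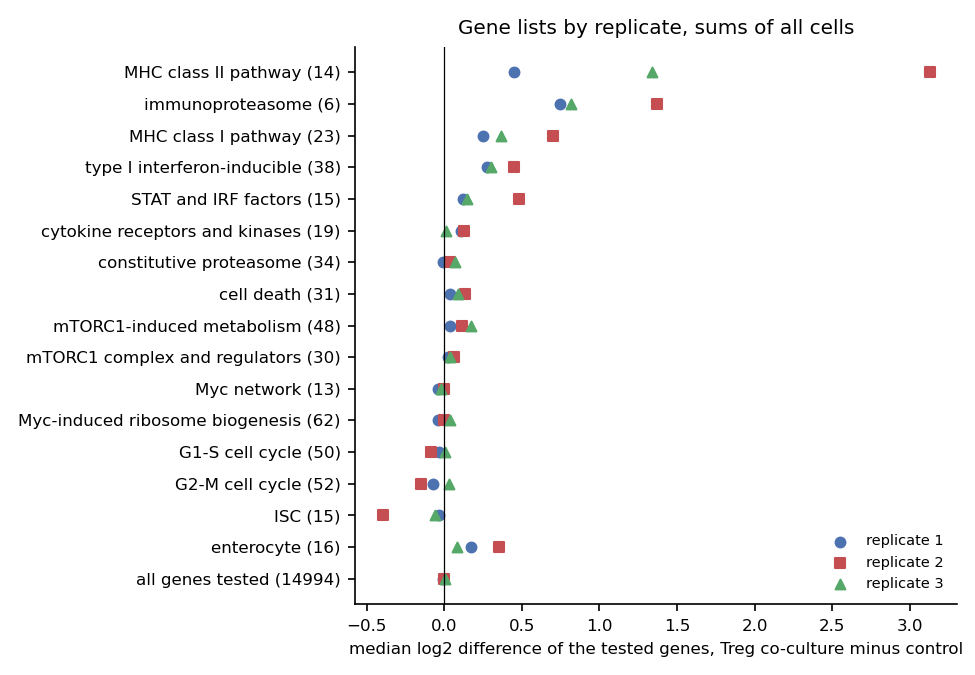
Median log2 difference between Treg co-culture and control over the tested genes of each list (number in parentheses), for replicates 1 (circles), 2 (squares) and 3 (triangles), in sums of all cells. MHC class II genes lie at 0.45, 3.13 and 1.34 and the immunoproteasome at 0.75, 1.37 and 0.82, while the medians of all genes lie near 0; in the 5 lists at the top replicate 2 has the highest median.

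Cells were assigned to classes by their likeness to clusters of Ctrl cells. The genes of the fixed interferon, antigen presentation and cell cycle lists were left out, but genes outside these lists, such as Ifitm3 and the cell cycle genes Plk1 and Foxm1, were among the 658 that assigned cells. Of the named classes, 5 had enough cells in every sum and were tested. Cells of clusters that the markers did not name, a mean of 16.1% of Ctrl and 16.3% of Treg cells, were not tested as a class. ISC-like cells held the most calls, 37 of 12567 genes (0.294%), 35 higher (0.279%) and 2 lower (0.0159%). Irf1 went from 7.06, 5.46 and 6.86 CPM to 32.2, 61.1 and 35.8 in these cells, and Cd74 from 1.49, 5.31 and 2.94 to 21.5, 416 and 107 (adjusted p = 0.000521). The class II chains passed the test in ISC-like cells: H2-Aa had 6, 9 and 2 UMIs in Ctrl and 52, 867 and 77 in Treg (log2 fold change 5.74, SE 1.11, adjusted p = 0.0183). H2-Ab1, H2-Eb1 and H2-DMa had log2 fold changes of 4.80, 5.22 and 2.17, and Nlrc5 one of 4.51 from 0, 2 and 1 UMIs in Ctrl. The calls of H2-Aa, H2-Ab1 and H2-Eb1 in these cells were lost without replicate 2, without replicate 3 and without the replicate block. Gsdmd, the pore-forming gasdermin D, rose by 1.23 (SE 0.22), and Ifi47, an interferon-inducible GTPase, by 2.41 (SE 0.49). The 2 lower genes were Gkn3, at 38.1, 27.2 and 53.3 in Ctrl and 22.6, 3.31 and 19.9 in Treg, and Ccni, a cyclin gene, which fell by 0.25 on the log2 scale. Gkn3 is an ISC marker that was itself used to assign cells, so its value within the class is a description; in all cells it had a log2 fold change of -1.61 (adjusted p = 0.274). Lgr5 (0.08), Olfm4 (-0.17), Myc (0.11) and Mki67 (-0.003) had small log2 fold changes in ISC-like cells, with adjusted p of 0.515 and above. Lgr5 and Olfm4 were also used to assign cells, so their values within the class are a description too.

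TA-like cells held 25 calls of 11734 genes (0.213%), 22 higher (0.187%) and 3 lower (0.0256%). Ifitm3 rose from 98.4, 141 and 124 CPM to 266, 372 and 422 (log2 fold change 1.51, SE 0.09), and Irf1 from 6.24, 6.14 and 4.73 to 38.3, 59.2 and 46.9. Ifitm3 is also 1 of 4 called genes, with Gkn3, Dmbt1 and Rasa4, that assigned cells to classes. All 5 tested immunoproteasome genes passed here. The lower genes were Ebpl, Tstd1 and Mt1; Mt1, a metal-binding metallothionein, fell by 0.48 on the log2 scale (SE 0.10). EP-like cells, which resembled a cluster with 4 of 8 detected enterocyte progenitor markers raised, held 8 calls of 9826 genes (0.0814%), all higher: Irf1, Ifitm3, Cd74 and the 5 tested immunoproteasome genes. Enterocyte-like cells held 7 calls of 10091 (0.0694%), also all higher: Irf1, Psmb8, Psmb9, Psme1, Psme2, Lgals9 and Adh6a, an alcohol dehydrogenase that rose from 8.92, 4.40 and 12.6 to 14.2, 35.9 and 54.4.

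Goblet/Paneth-like cells held 4 calls of 8495 genes (0.0471%), from sums of 13 to 49 cells. Cd74 was higher (0.0118% of genes tested), with 0, 2 and 2 UMIs in Ctrl and 2, 125 and 20 in Treg, while Cps1, Ckb and Dmbt1 were lower (0.0353%). Cps1, a urea cycle enzyme, went from 408, 252 and 264 CPM to 138, 121 and 107 (log2 fold change -1.36, SE 0.23, adjusted p = 0.0217). Ckb, the brain-type creatine kinase, and Dmbt1, a secreted mucosal defence protein, had log2 fold changes of -1.37 and -1.62 (adjusted p = 0.0499 for each). The make-up of this class moved as well: over all cells the 10 Paneth markers summed to 1257, 1540 and 2236 CPM in Ctrl and 698, 2430 and 884 in Treg, and the 10 goblet markers to 1310, 1503 and 2352 against 1389, 2775 and 1580. The part of these markers in the result was not tested.

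A gene that passed in one class and not in another was not thereby different between them. The difference of the Treg effect between ISC-like and enterocyte-like cells was tested directly, and 0 of 11957 genes passed, with 620 at an unadjusted p below 0.05. Cd74 was 1.46 higher on the log2 scale in ISC-like cells, with an SE of 1.78, and H2-Aa 1.77 higher, with an SE of 3.17, so that large differences in either direction lie within the error. The fit blocked replicates within each class and did not pair the ISC-like and enterocyte-like sums of the same culture. How far this widened the SE was not tested. The nearest to a difference among the named genes was Myc, at 0.54 (SE 0.17, adjusted p = 0.919), with log2 fold changes of 0.11 in ISC-like and -0.44 in enterocyte-like cells. Of the 52 genes called in any of the 6 comparisons, 6 were called in 4 classes and 0 in all 5.

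**Figure D4:**
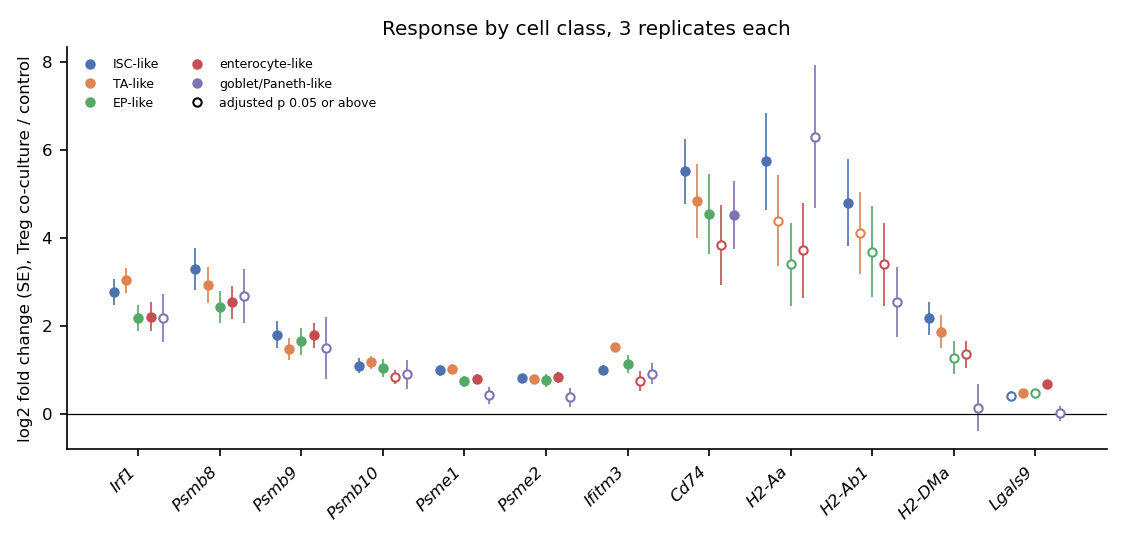
Log2 fold change between Treg co-culture and control with its SE for 12 genes in sums of 5 cell classes, 3 replicates each; filled symbols passed an adjusted p of 0.05 and open symbols did not. The immunoproteasome genes, Irf1 and Cd74 lie above 0 in each class, and the error bars of Cd74 and the class II chains are the widest.

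At the level of single cells, a larger share of cells held transcripts of the pooled class II genes, Cd74 and Irf1 in each replicate after co-culture. Each cell was thinned to 10000 UMIs so that depth did not set the shares. In Ctrl 9.80%, 11.4% and 12.8% of cells held a UMI of H2-Aa, H2-Ab1, H2-Eb1, H2-DMa or H2-DMb1, and in Treg 19.9%, 57.6% and 30.9%. Every Treg replicate was above every Ctrl replicate, with differences of 10.1, 46.2 and 18.1 percentage points (two-sided exact permutation test p = 0.1). This is the smallest p that 3 against 3 can give without pairing, and the test did not use the pairing within replicates. Without thinning the means were 39.8% and 67.1%. Cd74 was found in 1.14%, 5.37% and 1.74% of Ctrl cells and 8.14%, 56.7% and 27.6% of Treg cells (exact p = 0.1), and Irf1 in 9.15%, 7.2% and 8.14% against 26.1%, 41.5% and 31.1% (exact p = 0.1). Other genes did not follow: H2-DMb1 differed by -0.02, 6.14 and 0.90 percentage points (exact p = 0.4), and Gbp2 and Socs1 had exact p of 0.4 and 0.5. Ubd was found in very few cells, with means of 0.286% in Ctrl and 0.0792% in Treg (exact p = 0.3). It was lower in 3 of 3 replicates after thinning, but without thinning it differed by 0.06, 0.38 and -1.03 percentage points. Since cells of all 6 groups shared each library, the Ctrl share also holds whatever free RNA gave a UMI in these droplets.

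Within classes, the share of cells with a class II UMI in Treg replicate 2 was 68.2% of ISC-like, 53.3% of TA-like, 53.3% of EP-like, 65.5% of enterocyte-like and 34.7% of goblet/Paneth-like cells. In Treg replicate 1 the shares were 23% of 269 ISC-like and 18.3% of 104 enterocyte-like cells, against 7.17% and 11.7% in Ctrl replicate 1. In the same replicate TA-like cells had 23.4% against 9.35% and EP-like cells 22.4% against 14%, but goblet/Paneth-like cells had 6.25% of 16 against 6.67% of 15, unnamed cells 12% against 12.5%, and endocrine-like cells 0 of 8 against 2 of 11. Cells with 5 or more of these UMIs after thinning numbered 69 of 255 ISC-like cells in Treg replicate 2, 2 of 141 in replicate 3 and 0 of 269 in replicate 1, and 0 in the Ctrl sums of that class.

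**Figure D5:**
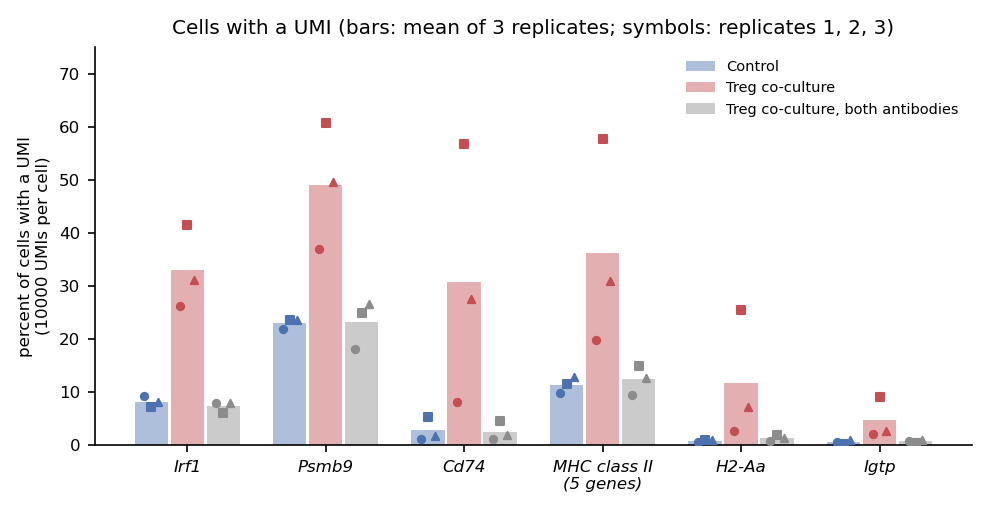
Percent of cells with at least 1 UMI after thinning to 10000 UMIs per cell, for control (blue), Treg co-culture (red) and Treg co-culture with both antibodies (grey); bars are means of 3 replicates and circles, squares and triangles are replicates 1, 2 and 3. The red symbols of Irf1, Psmb9, Cd74 and the pooled 5 class II genes lie above the blue and grey ones, with replicate 2 highest.

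Treg co-culture was also compared with Treg co-culture with both antibodies, which shares libraries with Treg and Ctrl. This contrast uses the same Treg samples as the main one. The co-cultures with a single antibody were not tested against Treg. In all cells 32 of 14994 genes (0.213%) were higher and 0 lower in Treg than in Treg with both antibodies, and 1419 had an unadjusted p below 0.05. With both antibodies Irf1 stood at 7.57 ± 0.99 CPM (SD, n = 3), Psmb8 at 10.4 ± 4.9 and Cd74 at 3.41 ± 1.7, means within the range of the Ctrl replicates. The means with the IFNγ antibody alone were 7.04 for Irf1 and 3.10 for Cd74, and with the IL-10 receptor antibody alone 62.5 and 255. Recombinant cytokines gave higher levels than co-culture, at 158 ± 39.4 for Irf1 and 1287 ± 349 for Cd74.

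No difference in the share of cells of a class passed a test. ISC-like cells made up 36.2 ± 0.24% of Ctrl and 32.6 ± 6.3% of Treg cells (SD, n = 3), with differences of 1.99, -10.2 and -2.55 percentage points in replicates 1, 2 and 3. TA-like cells made up 24.1 ± 5.7% and 24.3 ± 4.9%, and enterocyte-like cells 11.8 ± 2.9% and 13.8 ± 1.2%. Over the 6 classes and the unnamed cells, exact permutation p ran from 0.4 to 0.9 (adjusted p = 0.9 for each). The test did not use the pairing of Ctrl and Treg within replicates, and unpaired 3 against 3 cannot go below 0.1.

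Since the called genes moved together, their promoters were searched for the letters of a pair of interferon response motifs. RefSeq (GRCm38.p6) gave a promoter of 300 bases, 250 before to 50 after a start, for 17 of the 23 genes. GAS, the site bound by STAT dimers, was searched as TTCNNNGAA, which reads the same on both strands, and was found in 5 of the 17 (Irf1, Gm12216, Psmb8, Casp12 and Ifitm3), against 9.55% of 27025 genes with a promoter and 8.35% of those tested. The core of ISRE, the site bound by IRF proteins and ISGF3, was searched as GAAA, any 2 bases and GAAA or, on the other strand, TTTC, any 2 bases and TTTC, and was found in 6 of the 17 (Ctss, Ifitm3, Gm12216, Lgals9, Erap1 and Psme1), against 3.99% of genes with a promoter and 3.71% of those tested. Either motif was found in 9 of the 17, against 12.9% of genes with a promoter and 11.5% of those tested. Nmi, Tnfsf10, Psmb10, Tnfaip8l3, Psme2, Irf9, Tapbp and Psmb9 had neither. A match is a description of the sequence and not a shown binding site. The promoters of Irf1, Ifitm3, Psme1 and Psmb8 are shown as examples of called genes with a match. They are read 5′ to 3′ on the gene's strand with matches in capitals. In Ifitm3 the last 3 bases of a GAS match are the first 3 of an ISRE match.
Irf1, chr11:53769764-53770063, strand +: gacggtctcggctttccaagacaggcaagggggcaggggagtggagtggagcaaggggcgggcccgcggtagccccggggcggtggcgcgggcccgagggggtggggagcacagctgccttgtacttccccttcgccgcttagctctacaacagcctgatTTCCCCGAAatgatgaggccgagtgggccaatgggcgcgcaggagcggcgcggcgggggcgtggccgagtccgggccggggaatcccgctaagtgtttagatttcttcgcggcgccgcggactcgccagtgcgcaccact
Ifitm3, chr7:141010695-141010994, strand -: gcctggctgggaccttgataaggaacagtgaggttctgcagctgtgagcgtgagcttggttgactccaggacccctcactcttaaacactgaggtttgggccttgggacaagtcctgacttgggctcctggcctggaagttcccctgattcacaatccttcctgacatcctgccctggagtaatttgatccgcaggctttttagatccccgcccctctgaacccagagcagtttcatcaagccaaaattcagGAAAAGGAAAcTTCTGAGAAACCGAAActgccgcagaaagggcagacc
Psme1, chr14:55578244-55578543, strand +: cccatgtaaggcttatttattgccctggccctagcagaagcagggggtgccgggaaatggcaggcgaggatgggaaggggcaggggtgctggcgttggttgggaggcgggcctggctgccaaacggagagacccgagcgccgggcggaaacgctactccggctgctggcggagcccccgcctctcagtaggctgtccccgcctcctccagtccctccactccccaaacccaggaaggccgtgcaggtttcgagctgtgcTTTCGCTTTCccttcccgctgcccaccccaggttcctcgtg
Psmb8, chr17:34197945-34198244, strand +: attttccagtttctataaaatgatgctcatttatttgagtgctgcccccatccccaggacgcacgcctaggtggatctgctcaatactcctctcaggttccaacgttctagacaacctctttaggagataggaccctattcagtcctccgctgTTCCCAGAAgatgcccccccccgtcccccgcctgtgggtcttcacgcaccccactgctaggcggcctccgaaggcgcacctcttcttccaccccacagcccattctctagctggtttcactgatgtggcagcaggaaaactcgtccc

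The GAS match of Irf1 begins 90 bases before the RefSeq start, and a second annotated Irf1 start has no match of either motif in its window. The ISRE match of Psme1 begins 9 bases after the start, and the GAS match of Psmb8 97 bases before it. Several called genes are neighbours: on chromosome 14 Psme1 and Psme2 are 5911 bases apart and Psme2 and Irf9 12457, and on chromosome 17 Psmb8 and Psmb9 are 9956 bases apart, with Tap1 overlapping the edge of Psmb9 and ending 495 bases before Psmb8.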

How the data were processed

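Single cell RNA was measured in 6 libraries of hashed organoid cells. The deposited files hold UMI counts per gene and hashtag and barcode, made by the authors with Cell Ranger 7.0.0 on the mouse genome GRCm38; per the labels the authors' later steps used Seurat 4.0.5. These counts are raw, one per molecule, and the filtering of cells described here was redone from them. Library B6, which the study set aside, entered no comparison.

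Hashtag calls were remade with HTODemux (Seurat 5.3.0, CLR, positive quantile 0.99). Ctrl cells were clustered with scanpy 1.11.5 (Leiden, resolution 1.0) without the genes of fixed interferon, antigen presentation and cell cycle lists (other such genes, Ifitm3 among them, stayed in), clusters were named from fixed markers, and each cell took the class of the Ctrl cluster it correlated with best over 658 genes. Of the Ctrl cells that made the cluster profiles, 86.6% returned to their own class. With profiles made without replicate 1, 2 or 3, 82.5%, 80.9% and 86.9% of the Ctrl cells left out did so. Doublets between groups were dropped by hashtag, and removal of likely doublets within groups was an alternative. The study's annotation, scDblFinder and NEBULA could not be rerun, so classes may differ from its own.

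Counts were summed per group and replicate, because cells are not replicates, and tested in R 4.3.3 with edgeR 4.0.16 (TMM, filterByExpr, glmQLFTest) over 18 sums of 6 groups and 3 biological replicates, with the replicate number as a blocking term; p-values were adjusted by Benjamini-Hochberg over all genes tested. Sums held 15150746 to 43959531 UMIs. The replicate number pairs the samples because each library holds all groups; the deviations of Ctrl and Treg sums of 1 replicate correlated at 0.56, 0.38 and 0.35 in all cells. Levels are CPM, normalised UMIs per 1000000. The script was tested on simulated counts. Intervals and limits cover counting error only. Alternatives were other normalisations, filters, tests, cell sets and left-out libraries.

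In each comparison up to 12 called genes per direction with the smallest p and the same sign in 3 of 3 replicates were named, with list members and Lgr5, Olfm4, Myc, Mki67, Cd74, Irf1 and Socs1; 1 further gene of this rule is not reported here. The members and the gene lists were chosen with earlier results of these data known.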

Additional observations from a re-analysis of the deposited data

Results flagged for a closer look

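Library B6 belongs to replicate 3 and took no part in the comparisons. The study left it out for its low counts and because many hashtag labels were insufficient or ambiguous. The Ctrl and Treg groups in it rest on those labels. Under the limits of the other libraries it held 78 Ctrl and 90 Treg cells, and the genes looked at there were higher in Treg. The ratio of Treg to Ctrl UMIs per 1000000 (CPM) was 3.29 for Irf1 (95% counting interval 2.01 to 5.63), 1.74 for Ifitm3, 1.75 for Psme1, 4.23 for Psmb8 (3.01 to 6.06) and 1.82 for Psmb9. Class II genes rested on few Ctrl UMIs: Cd74 had 4 in Ctrl and 147 in Treg, a ratio of 34.4 (13.1 to 128), H2-Aa had 1 and 15, a ratio of 14 (2.16 to 590), and H2-Ab1 had 2 and 23, a ratio of 10.8 (2.66 to 94.1). These intervals compare the UMIs of 1 library and not cultures. The class II ratios depended on the cell limits. With at least 2000 UMIs and 1000 genes, library B6 held 237 Ctrl and 407 Treg cells. All genes named here stayed higher in Treg, but the class II ratios were smaller. Cd74 then had 29 UMIs in Ctrl and 260 in Treg (9.76 and 69.99 CPM). H2-Aa had 8 and 41 UMIs and H2-Ab1 10 and 47. Irf1 stood at 10.76 CPM in Ctrl and 36.61 in Treg under these limits.

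Only genes called in at least 1 class were searched for opposite directions. In 4 of them all replicates of one class moved up and all of another moved down. The share of all genes with this pattern was not computed. A shared sign by itself was common: of 12567 genes in ISC-like sums, 1796 were higher and 2094 lower in 3 of 3 replicates. These differences between classes were not tested. Goblet/Paneth-like cells had a log2 fold change of -0.20 for Agpat4, an acyltransferase of lipid synthesis, while EP-like cells had 1.77, enterocyte-like 1.26, TA-like 1.10 and ISC-like 0.55. For Ckb the values were -1.37 in goblet/Paneth-like and 0.26 in enterocyte-like cells, and for Dmbt1 -1.62 in goblet/Paneth-like and 0.22 in TA-like cells. Gsr, glutathione reductase, was at -0.62 in goblet/Paneth-like cells, against 0.26, 0.25 and 0.12 for TA-like, EP-like and ISC-like sums. Each of these contrasts rests on the goblet/Paneth-like sums, which held 13 to 49 cells.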

How the results depend on the processing

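The 23 genes called in all cells kept their direction under each of the alternatives tried. Differences in the share of a class, none of which passed, did change sign: TA-like went from 0.22 percentage points to -0.018 with doublets removed and -2.07 without replicate 3, goblet/Paneth-like from 0.61 to -0.43 without replicate 2, unnamed cells from 0.22 to -0.016 with doublets removed and -0.51 without replicate 2, and endocrine-like from -0.095 to 0.14 with the lower cell limit, 0.032 with hashtag quantile 0.95 and 0.19 without replicate 1. Counts of calls moved more. For Treg against Ctrl in all cells, 42 genes passed without a filter on low counts, 54 with DESeq2 (50 higher, 4 lower), 160 when only Ctrl and Treg sums were fitted (129 higher, 31 lower) and 13 without library B4; the 23 were kept in the first 3 of these. Without the replicate block, which ignores the pairing, the counts were 5 in all cells, 0 for goblet/Paneth-like and EP-like cells, 1 for enterocyte-like, 5 for TA-like and 4 for ISC-like cells, and 6 for Treg against Treg with both antibodies. With 0 calls without the block, 199 of 9826 genes tested in EP-like cells had an unadjusted p below 0.05. In goblet/Paneth-like cells 382 of 8495 did. Both are below the share of 0.05 that this threshold itself allows. Leaving out 1 replicate gave 0 to 53 calls in all cells, 0 to 5 for goblet/Paneth-like, 0 to 11 for enterocyte-like, 0 to 15 for EP-like, 5 to 83 for TA-like and 4 to 121 for ISC-like cells, and 0 to 109 against both antibodies, in each lowest without replicate 3 and highest without replicate 1. Without replicate 3 the 0 calls in all cells came with 678 of 15234 genes at an unadjusted p below 0.05, again less than that share. Without a filter, counts were 85 for goblet/Paneth-like, 115 for enterocyte-like, 90 for EP-like, 215 for TA-like and 241 for ISC-like cells and 20 for the difference between ISC-like and enterocyte-like cells; DESeq2 gave 2 in goblet/Paneth-like cells. The cause of these moves was not tested. Other normalisations, hashtag and cell limits, doublet removal, equal class composition and equal cell numbers gave 18 to 30 calls in all cells. The difference in the share of cells with a class II UMI was 17.8 to 27.2 percentage points with other thinning or doublet removal. Small classes and genes under 1 CPM are limited by depth.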
